A study of Mus musculus with 6 samples.

Results

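Endoplasmic reticulum (ER) chaperones are the proteins that fold and quality-check what a cell sends into its secretory pathway. A set of 10 genes of this class was followed by name: Hspa5, Hsp90b1, Dnajb9, Dnajc3, Pdia4, Pdia6, Calr, Sdf2l1, Creld2 and Manf. Through the platform's probe annotation 14 of the 45281 probes on the array belonged to these 10 genes. Probes counted as detected on an array when under 0.05 of its negative controls were as bright, and those detected on 3 or more of the 6 arrays were kept. The kept set held 11 of the 14 probes and 9 of the 10 genes, and Manf was the gene that dropped out.

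The study compared back-skin epidermis of Harlequin Ichthyosis Mutant embryos (3 arrays) with that of wild-type embryos (3 arrays), all of the C57BL6 strain at E17.5 (counted in embryonic days). Which gene and allele make the mutant is not stated in the labels. All 6 epidermal sheets were peeled off after 1 hour in 5 mM EDTA at 37 °C, and the RNA was labelled for Illumina bead arrays. The labels number the samples of each group as biological replicates. They do not say whether the embryos came from separate litters, so the errors measure the spread between these samples.

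The lumen of the ER is where secreted and membrane proteins fold, form disulfide bonds and receive sugars. When unfolded proteins build up there, the sensors IRE1, PERK and ATF6 start the unfolded protein response, which induces chaperone genes through the factors XBP1 and ATF6. Keratinocytes of the upper epidermis load lamellar granules with lipids and proteins through this pathway, and calcium held in the ER also guides their differentiation.

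None of the chaperone genes passed the test between mutants and wild types. In limma, adjusted over all 18358 kept probes, 0 of 9 genes and 0 of 11 probes had an adjusted p under 0.05, against a background of 0% of the 11354 genes tested. At an unadjusted p under 0.05 the count was also 0 of 9, where 2.59% of all genes were higher and 3.75% lower. The log2 difference, mutant minus wild type, was above 0 for 7 of the 9 genes (44.4% of all genes), and its median was 0.31 (-0.06 over all genes tested). The highest values belonged to Dnajb9 (1.57, SE 0.80) and Hsp90b1 (0.57, SE 0.24), and the values below 0 to Dnajc3 (-0.27, SE 0.28) and Hspa5 (-0.22, SE 0.26). RNA of a whole peel cannot tell fewer cells of a type from less RNA per cell, and this holds for every value below.

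Wild-type array 3, titled bo12-8, was unlike the other 5. Pairs of arrays that included it had a Pearson's r of 0.836 to 0.891 over the kept probes, and pairs that did not had 0.965 to 0.990. In 19.1% of 3551 genes with several kept probes, the probes of that array deviated from the other arrays by amounts over 2 log2 units apart, compared with at most 0.929% in any other array. Mean raw intensity was 390.0 to 463 in mutant arrays, and 273, 398 and 260.0 in wild-type arrays 1 to 3. Wild-type array 1 was thus nearly as dim as bo12-8. The arrays had 17159 to 18422 probes detected. The titles also carry a prefix: bo20 for 2 mutants and 2 wild types, and bo12 for 1 mutant and the wild-type array bo12-8. The labels do not say what the prefix stands for. The chaperone genes are therefore also described without bo12-8 and within each prefix.

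Leaving out bo12-8 did not bring any chaperone gene past the threshold, while 0.203% of all genes then passed as higher and 0.159% as lower. The median over the 9 genes was 0.35 without it (0.00 over all genes tested), with 6 of 9 above 0 (49.9% of all genes). Mutants and wild types did not overlap, with mutants higher, for 1 of 9 genes, Hsp90b1, with 6 arrays (5.96% of all genes). Without bo12-8 this held for 4 of 9, Hsp90b1, Pdia4, Calr and Sdf2l1 (14% of all genes). Mutants lay wholly below wild types for 0 of 9 with 6 arrays (8.24% of all genes), and without bo12-8 for 2 of 9, Hspa5 and Pdia6 (12% of all genes). Between arrays of the same replicate number, a count made after the values were seen, 3 of 9 genes were higher in the mutant in all 3 pairs (Hsp90b1, Dnajb9 and Creld2; 15% of all genes). Hspa5 and Dnajc3, 2 of 9, were lower in all 3 (23.9% of all genes). Within bo20 the numbers are not shown to pair the samples, and Creld2 read 9.18 in mutant array 2 against 9.26 in wild-type array 1. In the limma fit without bo12-8, the 2 genes with an unadjusted p under 0.05 were Calr and Sdf2l1, where 5.15% of all genes were higher at this level.

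**Figure D1:**
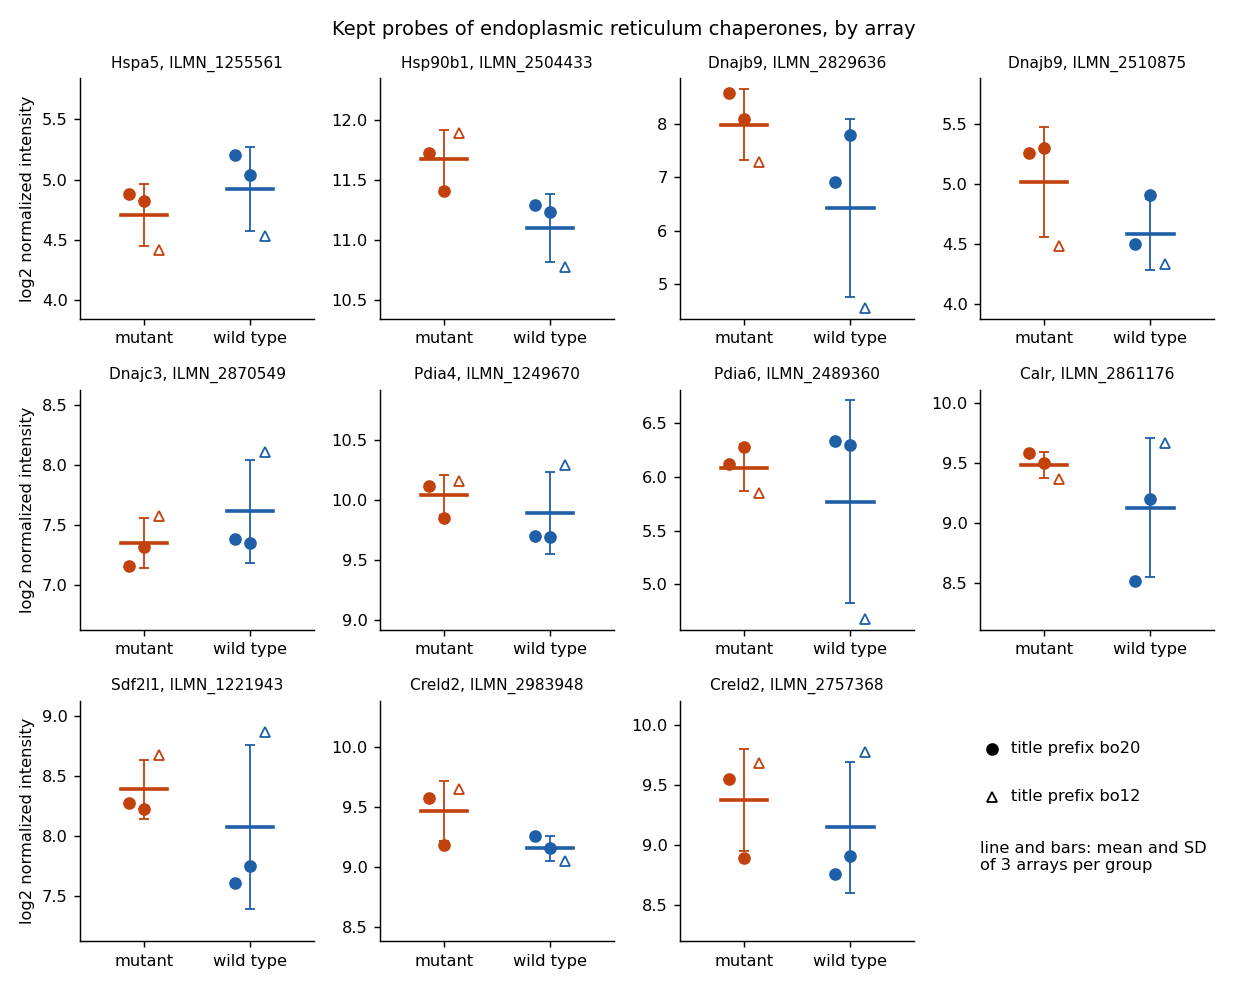
Log2 normalized intensity (vertical axis, a separate range per panel) of the 11 kept chaperone probes in 3 mutant and 3 wild-type arrays, with the mean and SD of each group. Circles are arrays of prefix bo20 and triangles those of prefix bo12. Wild-type array bo12-8, the blue triangle, is the lowest point for Hsp90b1, both Dnajb9 probes, Pdia6 and the brighter Creld2 probe, and the highest for Sdf2l1, Pdia4, Calr, Dnajc3 and the other Creld2 probe.

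Promoter sequences of the same genes are shown because 6 of them share a regulatory element, whatever their values on the arrays. RefSeq windows on GRCm38.p6, from 250 bases before to 50 bases after the annotated start, were at hand for 9 of the 10 genes, all but Manf. They were searched on both strands for the ER stress response element, ERSE, which is CCAAT and CCACG with any 9 bases between them. NF-Y is known to bind its left end and ATF6 its right end. An exact match was found in 6 of the 9 windows, compared with 39 of all 32851 promoter windows of the table, or 0.119%. The 39 include these 6. Chaperone genes, Hspa5 above all, are known targets of this element, so the comparison is a description and no independent test. The related elements ERSE-II (ATTGG and CCACG with any 1 base between them) and UPRE (TGACGTGG) were found in 0 of the 9 windows, compared with 0.0365% and 0.676% of all windows. A match describes the letters of these windows and is no evidence of binding in this tissue. The matches, read 5′ to 3′ on the strand that carries the element, with both conserved ends in capitals, were the following.
Hspa5: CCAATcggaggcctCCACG
Hsp90b1, the copy farther from the start: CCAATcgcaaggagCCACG
Hsp90b1, the copy nearer the start: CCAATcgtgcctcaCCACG
Dnajc3: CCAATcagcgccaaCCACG
Pdia6: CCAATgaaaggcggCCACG
Calr: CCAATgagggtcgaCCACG
Creld2: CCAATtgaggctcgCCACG

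Hspa5, Hsp90b1 and Calr are printed whole, since the first is the classic target of this element, the second holds 2 copies of it and the third has it on the opposite strand. Capitals mark the element.
Hspa5, chr2:34771840-34772139, + strand: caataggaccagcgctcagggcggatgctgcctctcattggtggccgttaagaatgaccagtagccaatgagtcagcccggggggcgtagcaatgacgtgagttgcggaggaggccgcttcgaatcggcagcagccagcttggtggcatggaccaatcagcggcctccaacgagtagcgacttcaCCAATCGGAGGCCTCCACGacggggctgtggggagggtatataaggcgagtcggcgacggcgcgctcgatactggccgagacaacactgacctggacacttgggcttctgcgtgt
Hsp90b1, chr10:86705395-86705694, - strand: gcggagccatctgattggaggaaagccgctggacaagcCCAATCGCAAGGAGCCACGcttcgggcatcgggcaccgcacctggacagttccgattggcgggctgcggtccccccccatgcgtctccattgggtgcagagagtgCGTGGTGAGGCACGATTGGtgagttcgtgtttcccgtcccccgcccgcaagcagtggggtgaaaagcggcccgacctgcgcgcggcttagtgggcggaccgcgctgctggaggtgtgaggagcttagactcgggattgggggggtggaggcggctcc
Calr, chr8:84846882-84847181, - strand: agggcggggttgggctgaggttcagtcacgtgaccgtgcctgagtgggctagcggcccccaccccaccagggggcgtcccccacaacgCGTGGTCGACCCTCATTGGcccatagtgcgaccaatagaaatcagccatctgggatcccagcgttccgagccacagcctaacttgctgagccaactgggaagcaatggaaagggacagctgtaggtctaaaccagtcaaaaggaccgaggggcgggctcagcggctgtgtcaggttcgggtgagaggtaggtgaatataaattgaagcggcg
The element began 65 bases before the start in Hspa5, 212 and 107 before it in Hsp90b1, and 162 before it in Calr. In Dnajc3, Pdia6 and Creld2 it began 105, 98 and 126 bases before the start. No exact match lay in the windows of Dnajb9, Pdia4 and Sdf2l1. The window of Pdia4 held the element all but its last letter. With exact matches counted in, the element without that letter was found in 0.365% of all windows.

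**Figure D2:**
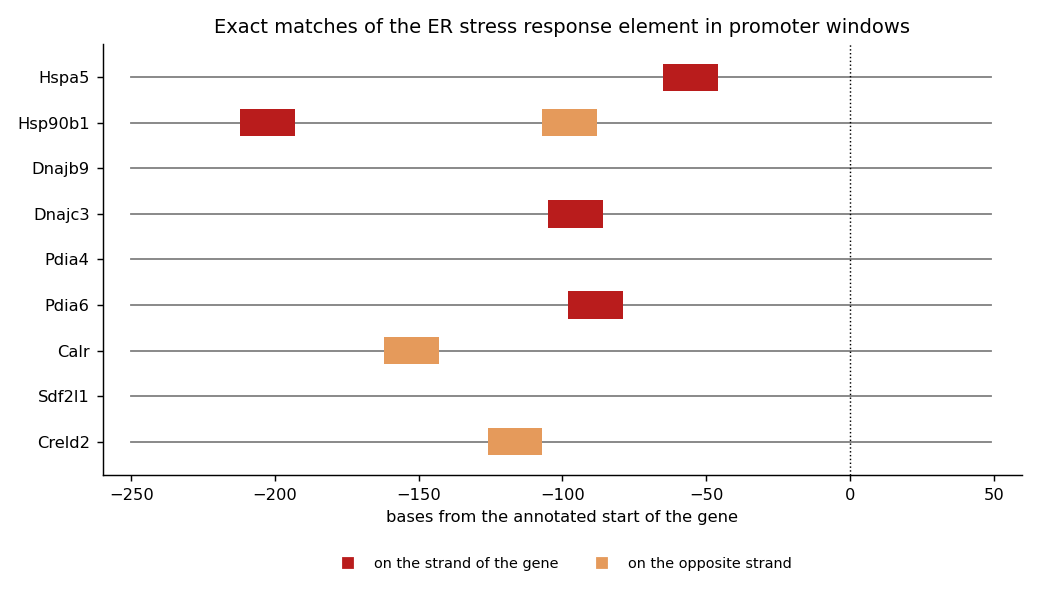
Position of exact ERSE matches, in bases from the annotated start (horizontal axis), in the promoter windows of 9 chaperone genes. Dark bars lie on the strand of the gene and light bars on the opposite strand. The 7 matches sit between 212 and 47 bases before the start, and Dnajb9, Pdia4 and Sdf2l1 have none.

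Hspa5 encodes BiP, the HSP70 of the ER, which holds unfolded chains and keeps the stress sensors quiet until such chains draw it away. Its only probe (ILMN_1255561) read close to background on every array, with raw intensities of 88.9 to 111 in mutants and 80.9 to 107.5 in wild types, where the array medians were 81.0 to 101. It was detected on 2 of 3 mutant and 2 of 3 wild-type arrays. Log2 values were 4.88, 4.82 and 4.41 in the mutants, against 5.20, 5.04 and 4.53 in the wild types. The groups overlapped only through bo12-8, and both bo12 arrays were the lowest of their group. The difference of -0.22 (95% interval -0.84 to 0.40; limma adjusted p = 0.807) was -0.42 without bo12-8, -0.27 within bo20 and -0.12 within bo12. Under the tested alternatives, which reuse the same arrays, it was -0.71 to -0.08, with adjusted p from 0.414 to 0.998 in limma. So close to background the probe says little about Hspa5, and a decrease above all could be hidden.

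Hsp90b1 encodes the HSP90 of the ER, which finishes the folding of a select set of clients that includes integrins and Toll-like receptors. Its probe (ILMN_2504433) read 11.72, 11.41 and 11.89 in the mutants, against 11.29, 11.23 and 10.77 in the wild types. Every mutant lay above every wild type, the closest pair being 11.41 and 11.29. Mean levels were 11.67 ± 0.24 in mutants and 11.10 ± 0.28 in wild types (SD, n = 3 each), a 1.49-fold difference (95% interval 0.998 to 2.22; limma adjusted p = 0.791). Without bo12-8 the difference was 1.33-fold (0.963 to 1.83) and the groups still did not overlap. On the log2 scale it was 0.30 within bo20 and 1.12 within bo12. Under the 17 tested alternatives the difference was 0.30 to 0.79, with adjusted p from 0.366 to 0.998 in limma. These reuse the same arrays, and a change of filter, variance estimate or block alone left the value at 0.57. That all 17 were above 0 is therefore no added support.

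The J-domain proteins hand unfolded chains to BiP. Dnajb9, one of the most strongly induced of them under ER stress, carries misfolded proteins towards degradation and helps BiP to silence IRE1. Its brighter probe (ILMN_2829636) read 8.59, 8.10 and 7.28 in the mutants, against 6.92, 7.80 and 4.55 in the wild types, and was not detected on bo12-8. The groups overlapped, since the mutant of prefix bo12 lay below wild-type array 2, while each mutant lay above the wild type of its own replicate number. The difference was 2.97-fold with all arrays (95% interval 0.796 to 11.1; limma adjusted p = 0.791), and 1.55-fold without bo12-8 (0.795 to 3.03). With the replicate number as a block its interval was 1.38 to 6.40 and its adjusted p 0.467. Within bo20 it was 1.98-fold (1.21 to 3.25), with both mutants above both wild types, and limma's adjusted p was 0.259 there (0.248 to 0.998 over all alternatives). In the bo12 pair the log2 difference was 2.73, and without wild-type array 2 it was 2.26. With all arrays the log2 difference was 1.57, against 1.14 with a background offset of 50. It was 0.93 without background correction and 0.96 in the authors' table. Dnajb9 thus stood higher in mutants in each of these fits, by amounts that turned on single wild-type arrays and on the processing. The second probe (ILMN_2510875) was dim, at 5.26, 5.30 and 4.49 in the mutants, against 4.50, 4.91 and 4.34 in the wild types, with a difference of 0.43 (SE 0.30). From the median of the other arrays, bo12-8 deviated by -3.24 on the brighter probe and by -0.57 on the dimmer one.

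Dnajc3 has a J domain too and is known both as a BiP co-chaperone and as an inhibitor of PERK. Its detected probe (ILMN_2870549) read 7.16, 7.32 and 7.57 in the mutants, against 7.38, 7.35 and 8.11 in the wild types. The groups overlapped and the highest value was bo12-8. The difference of -0.27 (95% interval -0.92 to 0.39; limma adjusted p = 0.796) came to -0.02 without that array (-0.46 to 0.43), -0.13 within bo20 and -0.54 within bo12. A second probe (ILMN_2775386) was detected on 0 arrays.

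Pdia4 and Pdia6 are protein disulfide isomerases, which make and reshuffle disulfide bonds in folding chains. Pdia6 is also known to switch IRE1 signalling. Pdia4 (ILMN_1249670) read 10.12, 9.85 and 10.16 in the mutants, against 9.70, 9.69 and 10.29 in the wild types. The groups overlapped only through bo12-8, the highest of all 6. Pdia4 differed by 0.15 (95% interval -0.43 to 0.73; limma adjusted p = 0.856), and by 0.35 without bo12-8 (-0.07 to 0.77). It was 0.29 within bo20 and -0.13 within bo12, and 0.05 without wild-type array 1 or without wild-type array 2.

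Pdia6 (ILMN_2489360) read 6.12, 6.28 and 5.85 in the mutants, against 6.33, 6.29 and 4.68 in the wild types. It was not detected on bo12-8, and the other wild types lay above every mutant. The sign therefore turned with that array. Pdia6 differed by 0.31 with all arrays (95% interval -0.77 to 1.39; limma adjusted p = 0.839) and by -0.23 without bo12-8 (-0.68 to 0.22). Within bo20 the value was -0.11, and in the bo12 pair it was 1.17.

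Calr encodes calreticulin, which binds the sugars of young glycoproteins together with calnexin and is a main calcium store of the ER. Its detected probe (ILMN_2861176) read 9.59, 9.50 and 9.37 in the mutants, against 8.52, 9.20 and 9.67 in the wild types. The mutants lay close together (SD 0.11) and the wild types far apart (SD 0.58), with bo12-8 the highest of all 6. Calr was 1.28-fold higher with all arrays (95% interval 0.764 to 2.15; limma adjusted p = 0.793). Without bo12-8 it was 1.55-fold higher (1.05 to 2.27), with limma adjusted p = 0.453 (0.175 to 0.998 over all alternatives). Without wild-type array 1, the lowest, the log2 difference was 0.05. It was 0.69 among the bo20 arrays and -0.30 in the bo12 pair. A second probe (ILMN_1233820) was detected on 0 arrays.

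Sdf2l1 and Creld2 are small soluble proteins of the ER that stress induces. Sdf2l1 works in a complex with BiP and a J-domain partner, and Creld2 is thought to take part in disulfide exchange. Sdf2l1 (ILMN_1221943) read 8.27, 8.22 and 8.67 in the mutants, against 7.61, 7.75 and 8.86 in the wild types. Both bo12 arrays were the highest of their group, and bo12-8 lay above every mutant. Sdf2l1 was 1.24-fold higher with all arrays (95% interval 0.682 to 2.25; limma adjusted p = 0.807). Without bo12-8 it was 1.63-fold higher (1.17 to 2.27), with limma adjusted p = 0.332 (0.215 to 0.998 over all alternatives). On the log2 scale it was 0.31 with all arrays, 0.08 without wild-type array 1, 0.15 without wild-type array 2 and 0.17 without mutant array 3. It was 0.56 within bo20 and -0.19 within bo12.

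Creld2 had a pair of kept probes. The brighter (ILMN_2983948) read 9.57, 9.18 and 9.65 in the mutants, against 9.26, 9.16 and 9.05 in the wild types. One mutant lay within the wild-type range and the others lay above it. The difference was 1.24-fold (95% interval 0.871 to 1.77; limma adjusted p = 0.791) and 1.20-fold without bo12-8 (0.863 to 1.67). On the log2 scale it was 0.17 within bo20 and 0.60 within bo12. The other probe (ILMN_2757368) read 9.55, 8.89 and 9.68 in the mutants, against 8.76, 8.91 and 9.77 in the wild types, a difference of 0.22 (SE 0.35), or 0.53 (SE 0.26) without bo12-8. That array deviated from the median of the others by -0.20 on the brighter probe and by 0.86 on the other, so the probes of Creld2 placed it on opposite sides.

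Manf, which ER stress induces and which is partly secreted as a survival factor, was represented by 1 probe (ILMN_2597229). Raw intensities were 80.4, 92.8 and 83.0 in the mutants, against 83.9, 94.5 and 71.2 in the wild types, and it was detected on 0 arrays. No fold is given.

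**Figure D3:**
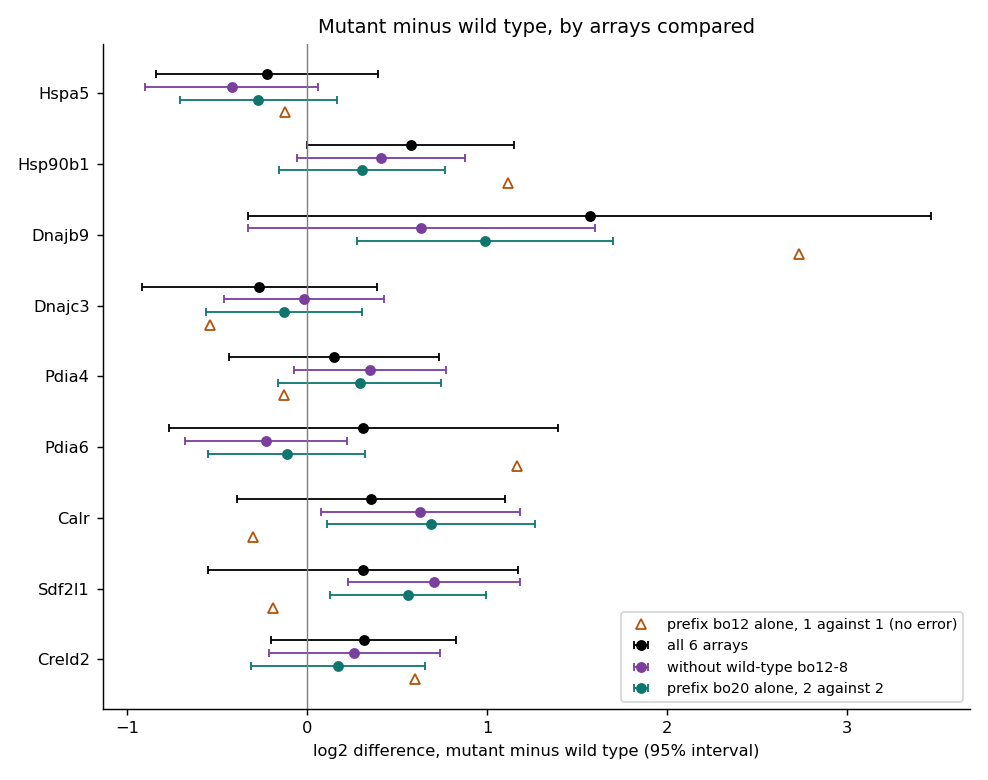
Log2 difference, mutant minus wild type (horizontal axis), of 9 chaperone genes with all 6 arrays, without bo12-8, within prefix bo20 (2 against 2) and in the single bo12 pair. Bars are 95% intervals from limma, and the bo12 pair has none. Every interval with all arrays reaches 0, and Pdia4, Pdia6, Calr and Sdf2l1 change sign between the prefixes.

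The prefixes differed most for Pdia6 and Dnajb9. In the bo20 arrays 6 of 9 genes were above 0 (48.3% of all genes), with a median of 0.29, and 5 of 9 had both mutants above both wild types (21.2% of all genes): Hsp90b1, Dnajb9, Pdia4, Calr and Sdf2l1. In the bo12 pair 4 of 9 were above 0 (39.9% of all genes), with a median of -0.12 (-0.19 over all genes tested): Hsp90b1, Dnajb9, Pdia6 and Creld2. The difference was above 0 in both prefixes for 3 of 9 genes, Hsp90b1, Dnajb9 and Creld2 (24.7% of all genes). With the stricter demand that both bo20 mutants lay above both bo20 wild types, it was 2 of 9, Hsp90b1 and Dnajb9 (12% of all genes). In bo20 the mutants also lay wholly below the wild types for 3 of 9, Hspa5, Dnajc3 and Pdia6 (23.6% of all genes). In an interaction fit of genotype and prefix, the effect of Pdia6 differed by 1.28 (SE 0.33, bo12 minus bo20; limma adjusted p = 0.0456). Dnajb9 differed by 1.74 (SE 0.54, adjusted p = 0.0832), and the other 7 genes had adjusted p of 0.188 to 0.805. The bo12 side of this fit is bo12-8 and 1 mutant, so all of its residual spread comes from the bo20 arrays, and whether the difference would recur in other arrays cannot be told. In this fit 10.1% of all genes passed, close to the 1 of 9 members, which is therefore no result about the chaperones.

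How alike the members' profiles were depended on bo12-8. Pearson's r of a member with the mean of the other members, a description over 6 arrays of 2 genotypes, was 0.84 for Hsp90b1, 0.68 for Creld2, 0.41 for Dnajb9 and 0.37 for Pdia6. It was 0.01 for Calr, -0.16 for Hspa5, -0.17 for Pdia4, -0.32 for Sdf2l1 and -0.84 for Dnajc3. Over the 5 arrays without bo12-8 it was 0.87 for Calr, 0.78 for Pdia4, 0.62 for Hsp90b1 and for Sdf2l1, 0.51 for Creld2 and 0.48 for Dnajb9. It was -0.42 for Dnajc3, -0.66 for Pdia6 and -0.73 for Hspa5. The mean centred log2 profile of the 9 genes was 0.26, 0.12 and 0.14 in the mutants, against -0.16, -0.01 and -0.34 in the wild types. It is an unscaled mean, so its low value on bo12-8 follows Dnajb9 above all and is no shared drop. From the median of the other arrays, bo12-8 deviated by -3.24 for Dnajb9 and -1.60 for Pdia6. Hsp90b1, Hspa5 and Creld2 deviated by -0.64 to -0.20, but Dnajc3, Sdf2l1, Pdia4 and Calr by 0.30 to 0.76. Other genes closest to that mean profile were Pmaip1, Grwd1, Naa25, Id2 and Trmt2a, with r of 0.993 to 0.997 over 6 arrays and 0.984 to 0.998 without bo12-8. They were the highest of 11354 genes by this measure, so such values can be found by search alone.

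**Figure D4:**
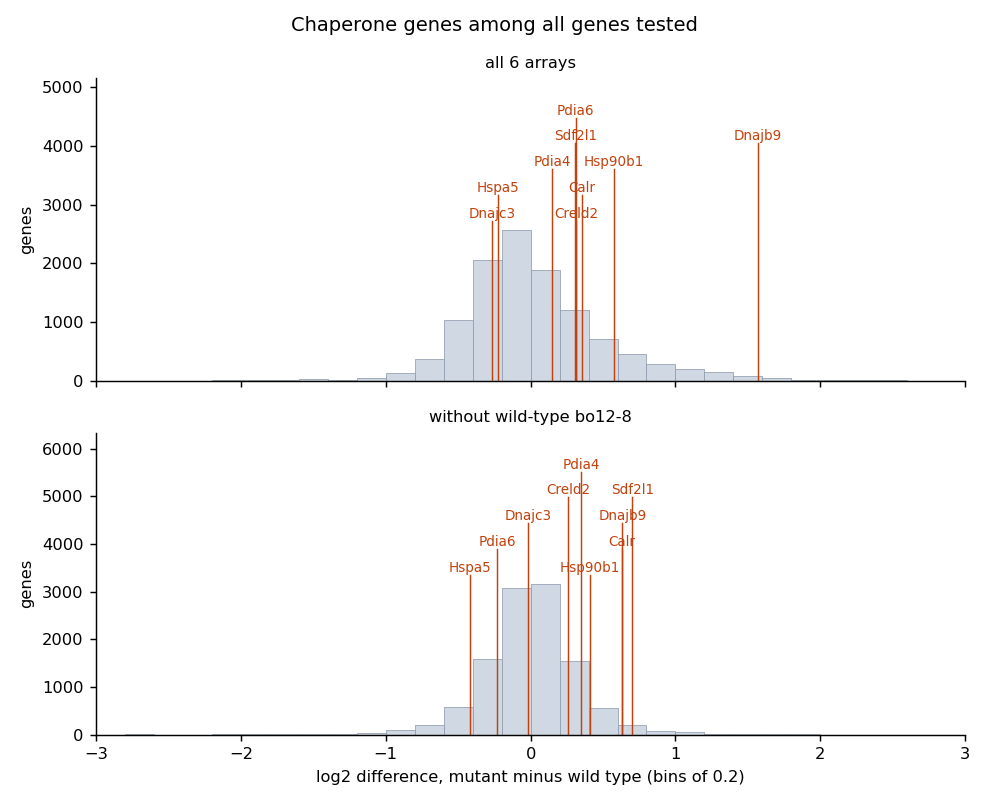
Number of genes (vertical axis) by log2 difference, mutant minus wild type (horizontal axis, bins of 0.2), for 11354 genes, with 9 chaperone genes marked by lines. Dnajb9 moves from 1.57 with all arrays to 0.63 without bo12-8, while Sdf2l1 and Calr move out to 0.70 and 0.63.

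Among all genes tested, Dnajb9 had 0.749% of genes above it by log2 difference with all arrays and 3.14% without bo12-8. Sdf2l1 and Calr had 21.1% and 18.8% above them with all arrays, and 2.43% and 3.19% without that array. Hspa5 had 69.3% above it with all arrays and 91.8% without.

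Other genes of the ER folding machinery were counted from lists. Of 7 further BiP co-factors, all tested, 3 were above 0 and 0 passed (median -0.13, or -0.02 without bo12-8). Dnajb11, the J-domain partner of Sdf2l1, read 10.62, 10.17 and 10.64 in the mutants, against 10.10, 10.07 and 9.93 in the wild types, a difference of 0.45 (SE 0.22) without overlap. Sil1, a nucleotide exchange factor of BiP, stood at -0.73 (SE 0.35). Of 12 tested disulfide isomerases and oxidases of 13, 5 were above 0 (median -0.11, or 0.05 without bo12-8), with Tmx1 at -0.44 (SE 0.29) and Qsox1, a sulfhydryl oxidase, at 0.31 (SE 0.22). Of 5 tested glycoprotein folding genes of 7, 2 were above 0 (median -0.12, or 0.02), and of 7 tested prolyl isomerases of 8, 3 were (median -0.02, or -0.07).

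The glycoprotein list shows how far bo12-8 can move a single probe. Mogs, the glucosidase that starts sugar trimming, and Lman1, a cargo receptor for export, differed by 1.33 (SE 0.98) and 1.32 (SE 1.05) with all arrays. Without bo12-8 they differed by 0.07 and -0.05. Fkbp2 and Fkbp14, prolyl isomerases of the ER, differed by -0.37 (SE 0.22) and 0.20 (SE 0.20).

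Sensors and transcription factors of the response had 3 of 7 tested genes above 0, of 10 listed (median -0.04, or 0.01 without bo12-8). Atf4, the factor made under PERK signalling, read 11.53, 11.17 and 11.13 in the mutants, against 11.35, 11.40 and 5.86 in the wild types. Its difference of 1.74 (SE 1.40) therefore rests on bo12-8, and it was -0.10 without that array. Ddit3, the stress factor CHOP, differed by -0.38 (SE 0.34). In ER-associated degradation, which returns misfolded proteins to the cytosol, 7 of 9 tested genes were above 0, of 14 listed (median 0.09, or 0.17 without bo12-8). Sel1l, a scaffold of the degradation ligase, read 8.39, 8.26 and 8.31 in the mutants, against 7.80, 8.16 and 7.72 in the wild types, a difference of 0.43 (SE 0.21) without overlap. Syvn1, the ligase itself, differed by 1.33 (SE 0.83), and by 0.26 without bo12-8.

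The translocon and signal peptidase list, the entry gate of the ER, had 4 of 12 tested genes above 0, of 13 (median -0.17, or 0.01 without bo12-8), with Sec62 at -0.57 (SE 0.23) and Spcs3 at -0.38 (SE 0.23). Both tested KDEL receptors, which return escaped chaperones to the ER, were above 0, with Kdelr2 at 0.41 (SE 0.24) and Kdelr3 at 0.17 (SE 0.26). Chaperones of the cytosol and mitochondria had 14 of 17 tested genes above 0, of 19, and a median of 0.59 with all arrays. Without bo12-8 the median was 0.10, and the list deviated by -0.80 in that array. Hspa1b, an inducible cytosolic HSP70, read 7.93, 8.05 and 7.35 in the mutants, against 5.80, 7.17 and 7.23 in the wild types, and differed by 1.04 (SE 0.43). It has a near-identical copy, Hspa1a, whose own probe, named here after its values were seen, differed by 0.03 (SE 0.21, adjusted p = 0.960). Cct2, a subunit of a cytosolic chaperonin, differed by 0.59 (SE 0.23). Its values, 4.41 to 5.47, and those of Sec62, 4.48 to 5.35, were close to background like those of Hspa5. No gene of these lists passed in limma with or without bo12-8, and the others named had adjusted p of 0.791 to 0.841 with all arrays.

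**Figure D5:**
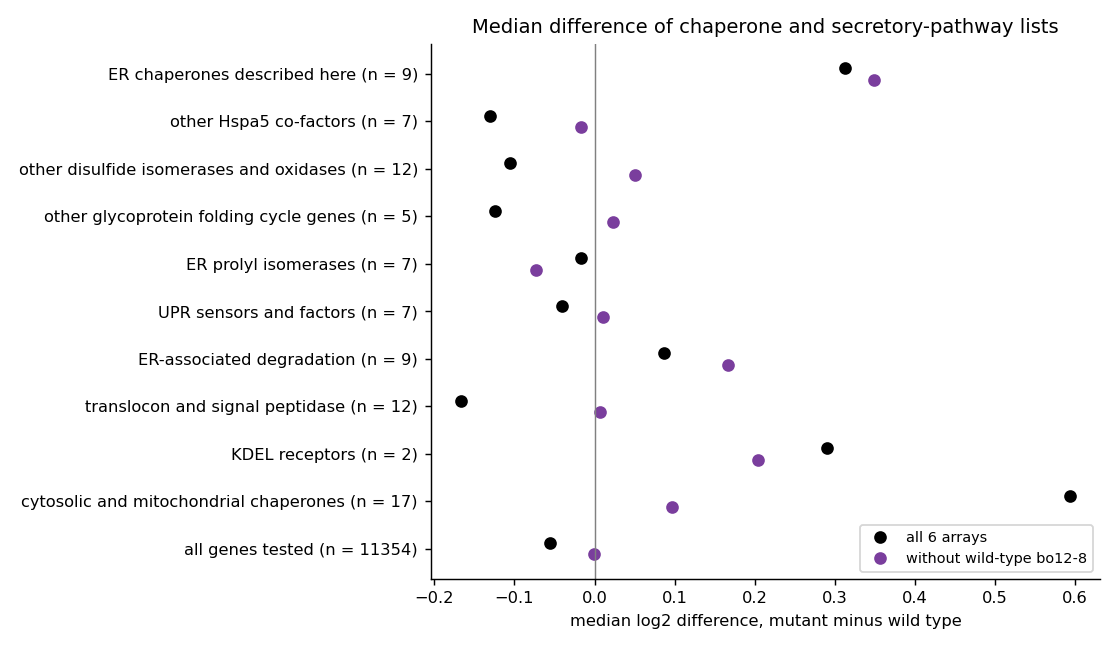
Median log2 difference, mutant minus wild type (horizontal axis), of each list of chaperone and secretory-pathway genes, with all 6 arrays and without bo12-8; n is the number of genes tested. The ER chaperones stand at 0.31 and 0.35, and the cytosolic and mitochondrial chaperones at 0.59 and 0.10.

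The tissue label was checked against markers. All 7 listed basal keratinocyte genes and 7 of 8 suprabasal ones were tested, with mean log2 levels of 10.98 to 11.03 in mutants and 10.97 to 11.38 in wild types for the basal list. For the suprabasal list they were 12.98 to 13.26 in mutants and 11.86 to 13.20 in wild types. The peels also held RNA of dermal fibroblasts (7 of 7 tested, summed intensity 25691 to 33279 in mutants and 17868 to 31567 in wild types) and of skeletal muscle (6 of 6). Langerhans cell and macrophage markers, 8 of 9 tested, did not overlap in summed intensity, at 3811 to 4333 in mutants and 1557 to 2216 in wild types. Such a sum follows its brightest genes. Gene by gene, 2 of the 8 had every mutant above every wild type (5.96% of all genes). All 8 were above 0 (median 0.60, or 0.49 without bo12-8), and Cd207, the defining Langerhans cell gene, did not pass the detection filter. Lyz2, a macrophage lysozyme named here after its values were seen, differed by 1.79 with all arrays (limma adjusted p = 0.101) and by 1.92 without bo12-8 (0.0229). Plasma cells and B cells, whose secretory load gives them many ER chaperones, had 2 of 6 markers tested, with summed intensities of 81.9 to 90.1 in mutants and 69.5 to 94.4 in wild types. Basal keratinocyte genes were above 0 in 1 of 7 (median -0.13, or -0.25 without bo12-8, with 0 of 7 above 0). Fibroblast genes were above 0 in 5 of 7 (median 0.49, or -0.02) and muscle genes in 6 of 6 (median 0.45, or 0.08). Of the other lists, hair follicle had 1 of 5 tested genes above 0, melanocyte 1 of 4, endothelium 0 of 5 and erythroid 2 of 2. Without bo12-8 these counts were 1, 0, 2 and 1. The hair follicle median was -1.17, or -0.27 without bo12-8, and the endothelium median -0.30, or -0.05. The part of cell makeup in the chaperone values was not tested.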

How the data were processed

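Per the file headers, the deposited values are raw bead intensities per probe and array. BeadStudio is the software named per the submitters' processing notes. A deposited fraction, headed as a p-value, comes with each intensity. The brightest probes stand at 1, so 1 minus this fraction served as the detection p. The deposited log2 table equals the log2 intensity after subtracting the array's 75th percentile and then each probe's median over the 6 arrays (largest difference 2.26e-06). Its column medians were -0.13, -0.13 and 0.01 in mutant arrays 1 to 3, and 0.26, -0.01 and 0.33 in wild-type arrays 1 to 3. Probe positions and the array version are not stated.

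Background was corrected with normexp (nec in limma 3.58.1, R 4.3.3, offset 16), followed by log2 and quantile normalization. The detection filter (p under 0.05, 3 arrays or more) left 18358 of 45281 probes. No pair of arrays shared more than 0.517% of its raw intensities. On the array 35784 probes carried 1 symbol, 0 several and 9497 none. Symbols were updated through Entrez identifiers (28620 probes) or accessions (2637) with GRCm38.p6 names, and kept from the platform for 4527. A gene was represented by its kept probe with the highest mean, which gave 11354 genes. Groups were compared with lmFit and eBayes in limma, two-sided, with Benjamini-Hochberg adjustment over all kept probes and a threshold of 0.05, after a test on simulated data. Fits that leave out arrays kept the same normalized values and probes. The number of arrays, 3 per group, limits the precision.

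Deviations from the group means correlated across probes at 0.27, 0.46 and 0.54 between samples of the same replicate number, for numbers 1 to 3. Within bo20 the other pairs of numbers were also positive (0.45 for mutant 1 with wild type 2, 0.19 for mutant 2 with wild type 1). Mutant 1 thus followed wild type 2 more closely than wild type 1, so a pairing by number within bo20 is not shown. Number and prefix are not separate. Replicates 1 and 2 carry prefix bo20 and replicate 3 carries bo12.

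Named genes were every member probe, the 2 genes with the smallest p in each other pathway list and the 5 genes most like the mean member profile. Lyz2, Cd207 and Hspa1a were named outside this rule, after their values were seen. The members and lists were chosen with earlier results of these data known. Alternatives were other background corrections, scalings, filters, tests, blocks and subsets of arrays.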

Additional observations from a re-analysis of the deposited data

Results flagged for a closer look

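The genotype difference of Pdia6 was 1.17 log2 units in the bo12 pair and -0.11 in bo20, and the interaction, bo12 minus bo20, was 1.28 (SE 0.33, limma adjusted p = 0.0456). The bo12 side is 1 mutant and wild-type array bo12-8, on which the probe was not detected, and it has no spread of its own. Among all genes 10.1% passed the same test, close to 1 of 9 members, so it is not a result about the chaperones.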

How the results depend on the processing

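No chaperone gene passed the threshold under any of the 17 alternatives with a test. With the other kept probes and the probe means of Dnajb9 and Creld2 counted in, 0 of 154 values passed (limma adjusted p 0.175 to 0.998). Of those values 118 were above 0 and 36 below. They reuse the same arrays, and a change of filter, variance estimate or block alone cannot move a probe's difference, so these counts are no added support. The replicate block gave 0 calls among the members and 0 among all probes, and changed no call. Pdia6 changed sign with array weights (-0.11), within bo20 (-0.11) and without wild-type array 3 (-0.23). In the bo12 pair, which has no test, the median of the members was -0.12 with 4 of 9 above 0, and Pdia4 (-0.13), Calr (-0.30) and Sdf2l1 (-0.19) were below 0. Leaving out 1 array at a time gave member medians of 0.077, without wild-type array 1, to 0.35, and Pdia6 differences of -0.23 to 0.60. It gave 1 to 4 members with all mutants above all wild types, 0 to 55 probes past the threshold and 0 to 33 of them higher. The 4 were without bo12-8, where 2 others lay wholly below (14% and 12% of all genes). Such separation is easier for any gene with fewer arrays, and 5.96% of all genes lay wholly above with 6. Members with every mutant above every wild type numbered 2 in the authors' table and 5 within bo20. Within bo20 another 3 members lay wholly below. Calls over all probes, with those higher in mutants after each, were 1 and 1 without background correction, 5 and 2 with median scaling, 6 and 6 in the authors' table, 129 and 73 with array weights, 48 and 29 with the title prefix block and 118 and 70 within bo20. Median scaling put the median of all genes at -0.17 and of the members at 0.30. The cause of these changes was not tested. Probes near background, Hspa5 and the dimmer Dnajb9 probe above all, limit what can be seen, and Manf was not measurable.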
